A study of Mus musculus with 85 samples.

Results

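The transcription factor genes Gata1, Gata2 and Gata3 and the cofactor gene Zfpm1, which encodes FOG1 (friend of GATA 1), were followed cell by cell through 5 sorted populations of the mouse embryo. The 4 genes were chosen by name, and all 6 of their probe sets were used, out of 18193 genes on the array, of which 10694 reached above background in 3 or more cells and are called measured. All 4 members were measured. Of the 6 probe sets 5 were above background in some cell, and 1 of the pair for Zfpm1 (1423603_at) was above background in no cell of any population.

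GATA factors are zinc finger proteins that bind short DNA sites with the core GATA. GATA2 is needed for blood stem cells to arise from the vessel wall and to persist, and it is also used by endothelial cells. GATA1 drives the red cell, platelet, mast cell and eosinophil lineages and takes over sites held by GATA2 as red cells form, while GATA3 serves T cells, innate lymphoid cells, sympathetic neurons and the nephric duct. FOG1 does not bind DNA at GATA sites itself but attaches to a zinc finger of GATA1 or another GATA factor and brings the NuRD and CtBP corepressors.

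Each array held the amplified poly(A) RNA of 1 cell, and values are log2 expression values of 85 arrays. The 7 endothelial cells (EC) and the 7 hemogenic ones (HEC), vessel-wall cells that give rise to blood, came from the caudal part of embryonic day (E) 10.5 embryos of the genotype eR1-GFP, in which an enhancer of Runx1 drives GFP. Both were sorted as CD31-positive cells without Ter119, CD45 or CD41, EC from the GFP-negative and HEC from the GFP-positive gate. Cells of hematopoietic clusters, which form on the inner side of the vessel wall, were wild type and sorted with c-Kit, CD31 and CD45 but without SSEA1. Of these, 28 came from the caudal part at E10.5 and 16 from the aorta-gonad-mesonephros region at E12.5. Hematopoietic stem cells (HSC) were wild type and came from E14.5 fetal liver, sorted with CD150, c-Kit, Sca-1 and Mac-1 and without CD48 or lineage markers. Of 27 such arrays, numbers 20 and 21 were near copies (r = 0.991) and were averaged, leaving 26 HSC and 84 cells in all.

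No animal or litter was named for any cell, so every population is a single sample and nothing was tested. A gene is called higher or lower where mean log2 values differed by 1 or more, and SDs are over cells. Values over 5 count as above background. Probe sets above background per cell had medians of 5729 in EC, 7834 in HEC and 9967 in the E10.5 cluster. The medians were 7916 in the E12.5 cluster and 6582 in HSC. In every comparison of populations below, the one with more detection also had more genes called higher. The part of depth in this was not tested. Defining markers fitted the sorted labels in most cells: medians of 9 of 10 endothelial markers were found in EC, 10 of 10 in HEC, and 9.5, 9 and 7.5 of 10 hematopoietic markers in E10.5 cluster, E12.5 cluster and HSC. In 6 cells markers went against the label, and these were EC cell 3 with germ-cell genes, E12.5 cluster cells 3, 6 and 10 with macrophage genes and HSC cells 5 and 7 with genes of sinusoidal endothelium. The member differences that moved most without them are given both ways.

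Promoter sequence is shown for Gata1 and Zfpm1 because these genes were found in overlapping sets of E10.5 cluster cells, as described further on. Gata1 was in 8 of the 11 such cells with Zfpm1 over 6, and in 9 of the 19 with Zfpm1 over 5. The stretches are the 250 bases upstream of 1 RefSeq transcript start of each gene in assembly GRCm38.p6, 5′ to 3′ on the gene's own strand. The first lies on the minus strand of chromosome X (chrX:7967911-7968160) and the second on the plus strand of chromosome 8 (chr8:122281891-122282140). Both lie within the annotated span of their gene (chrX:7959260-7976663 and chr8:122281856-122337862), so neither start is the outermost one. Capitals mark the core GATA, or its reverse complement, and the E-box CANNTG that basic helix-loop-helix factors such as TAL1 bind.
Gata1: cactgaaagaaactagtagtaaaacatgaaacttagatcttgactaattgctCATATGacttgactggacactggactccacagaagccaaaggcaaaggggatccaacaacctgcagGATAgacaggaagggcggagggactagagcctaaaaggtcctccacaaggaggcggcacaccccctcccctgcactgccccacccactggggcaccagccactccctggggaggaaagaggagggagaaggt
Zfpm1: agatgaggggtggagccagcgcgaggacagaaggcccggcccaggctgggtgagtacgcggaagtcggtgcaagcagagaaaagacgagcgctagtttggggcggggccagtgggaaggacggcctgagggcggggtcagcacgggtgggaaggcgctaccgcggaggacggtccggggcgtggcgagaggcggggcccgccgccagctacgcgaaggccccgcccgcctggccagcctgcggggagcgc
The Gata1 stretch held 1 GATA core that began 132 bases before the start and 1 E-box that began 198 bases before it, and the Zfpm1 stretch held neither. Of 32851 windows of that length for all genes 53.6% held a GATA core and 66.2% an E-box on either strand. The full site, searched as AGATAA or AGATAG and as TGATAA or TGATAG on both strands, was in 26.5% of all windows. It was in none of the 5 windows of the 4 members, which include 2 alternative starts of Gata2. GC content was 54.0% in the Gata1 window, 73.2% in that of Zfpm1, 67.2% and 74.0% in those of Gata2 and 70.0% in that of Gata3, against a median of 52.4% over all windows. These letters describe the window only.

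Gata1, the red cell and platelet factor, was found in cluster cells of both stages and in no EC, HEC or HSC. In the E10.5 cluster it was above background in 10 of 28 cells (35.7%, exact 95% interval 18.6 to 55.9%), and in the E12.5 cluster in 6 of 16 (37.5%, 15.2 to 64.6%). It was absent from all 7 EC (0 of 7) and all 7 HEC (0 of 7), each of which allows a share of up to 42.9%, and in 0 of 26 HSC, which allows up to 11.5%. Limits beside a count of 0 are 3 counts of the total, and the exact upper bounds are 41.0% for 0 of 7, 12.3% for 0 of 28 and 13.2% for 0 of 26. All intervals and limits of this kind cover counting error over cells only. The EC and HEC gates exclude Ter119 and CD41, surface markers of red cells and platelets, and the HSC gate excludes lineage markers, and the part of the gates in these zeros was not tested. Leaving out the 6 cells against their label gave 6 of 13 cells of the E12.5 cluster and 0 of 24 HSC.

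In the E10.5 cluster Gata1 values fell into separate high and low sets. The 10 E10.5 cluster cells with the gene read 8.74 (cell 5), 9.10 (cell 11), 10.64 (cell 13), 10.67 (cell 16), 10.85 (cell 19), 11.61 (cell 15), 11.66 (cell 8), 11.67 (cell 10), 11.72 (cell 14) and 12.001 (cell 3) on the log2 scale, and none of the 28 cells lay between 4 and 6. The lowest, median and highest values over all 28 were 2.26, 2.31 and 12.001. In the E12.5 cluster the gene was spread more evenly over its range, at 5.67 in cell 2, 7.27 in cell 1, 9.24 in cell 12, 11.004 in cell 5, 12.05 in cell 4 and 12.66 in cell 14. Lowest, median and highest there were 2.28, 2.54 and 12.66. EC ran from 2.32 to 2.56, HEC from 2.33 to 2.48 and HSC from 2.30 to 2.93, so every value of these 3 populations lay below every value of a cluster cell with the gene, while cluster cells without it overlapped them.

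**Figure D1:**
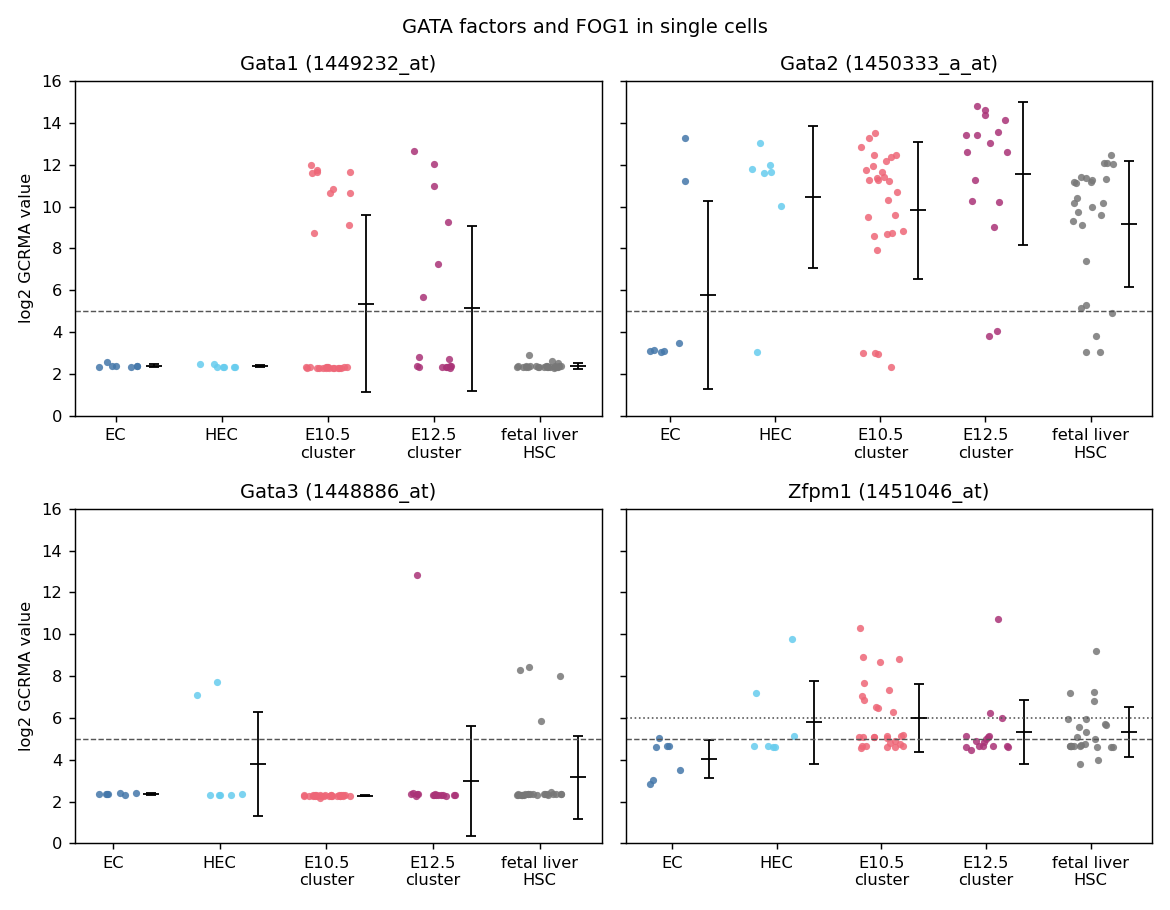
Log2 expression value (vertical axis) of Gata1, Gata2, Gata3 and Zfpm1, each on its probe set of highest mean, in every cell of the 5 populations (horizontal axis). Points are cells, spread sideways at random for legibility, black bars are the mean and SD over cells, the dashed line is the background limit of 5 and the dotted line in the Zfpm1 panel the limit of 6. Gata1 is either near 2.3 or between 5.67 and 12.66, Gata2 is high in most cells outside EC, Gata3 is in 7 cells, and most Zfpm1 values crowd between 4 and 6.

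Mean Gata1 levels were 5.36 ± 4.23 (SD, n = 28 cells) in the E10.5 cluster and 5.13 ± 3.96 (n = 16) in the E12.5 cluster, then 2.39 ± 0.08 in EC (n = 7), 2.38 ± 0.13 in HSC (n = 26) and 2.37 ± 0.07 in HEC (n = 7). No neighbours in this order differed by more than the larger of their SDs. E10.5 cluster cells exceeded HEC by 2.98. HSC minus E10.5 cluster was -2.97, and HSC minus E12.5 cluster was -2.75, or -3.39 without the 6 cells against their label. All 3 differences came from the minority of cluster cells with the gene: with medians over cells in place of means they were -0.03, 0.04 and -0.19. The cluster stages themselves differed by -0.23, or 0.42 without those 6 cells.

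Genes with a pattern of this kind were counted with limits taken from the values of Gata1 itself. The shares are therefore a description and do not show that Gata1 is unusual. Of the 10694 measured genes 322 (3.01%) were above background in no EC, HEC or HSC. Besides Gata1, 18 genes (0.168%) were also found in at least as many E10.5 and at least as many E12.5 cluster cells as Gata1. These were named after their values were seen, and they include Cpa3, a mast cell protease (11 E10.5 and 11 E12.5 cluster cells), Alox5, an enzyme of leukotriene synthesis (23 and 9), Cebpa, a myeloid transcription factor (12 and 7), and Zbtb16, which encodes PLZF (15 and 10).

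Gata2, the stem cell and endothelial factor, was the member found most widely outside EC. On probe set 1450333_a_at it was above background in 2 of 7 EC (28.6%, 3.67 to 71.0%), 6 of 7 HEC (85.7%, 42.1 to 99.6%), 24 of 28 cells of the E10.5 cluster (85.7%, 67.3 to 96.0%), 14 of 16 cells of the E12.5 cluster (87.5%, 61.7 to 98.4%) and 22 of 26 HSC (84.6%, 65.1 to 95.6%). HEC, both clusters and HSC thus had shares within 3 percentage points of each other on this probe set at the limit of 5. On the other probe set, 1428816_a_at, the shares were 85.7% in HEC, 92.9% in the E10.5 cluster, 81.25% in the E12.5 cluster and 76.9% in HSC. At a limit of 6 the share of HSC on 1450333_a_at was 76.9%. After quantile normalization 100% of EC and 96.2% of HSC passed the limit. These include EC cells that were below background before, so on that scale the limit does not mark background.

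**Figure D2:**
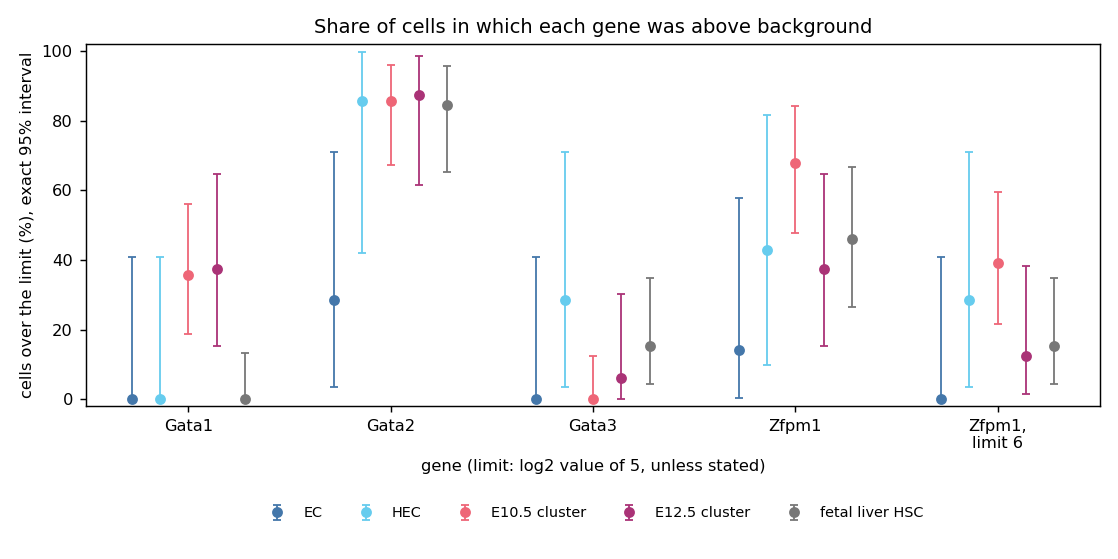
Percentage of cells (vertical axis) in which each gene was above background, for the 5 populations (colours), with exact 95% intervals that cover counting error only. Gata2 was found in 84.6 to 87.5% of cells in all populations but EC, Gata1 in cluster cells alone, and the Zfpm1 shares at the limit of 5 drop when the limit is set to 6.

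The 7 EC read 3.06, 3.10, 3.11, 3.12, 3.48, 11.24 and 13.28 for Gata2. The value of 11.24 belonged to cell 1, which had 9 of 10 endothelial markers, and the value of 13.28 to cell 3, which had 1 of 10 endothelial and 5 of 7 germ-cell markers. The 7 HEC read 3.02, 10.03, 11.60, 11.65, 11.77, 11.98 and 13.05. The low HEC value was that of cell 6, and on the other Gata2 probe set (1428816_a_at) that cell read 9.89 while cell 3 read 3.43, so every HEC had Gata2 on at least 1 probe set. The populations overlapped through EC cells 1 and 3 and HEC cell 6. Mean Gata2 was 5.77 ± 4.48 in EC and 10.45 ± 3.39 in HEC, a difference of 4.67, which exceeded both SDs. It was 5.93 without EC cell 3, 3.32 on the other probe set and 2.33 after quantile normalization.

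In the E10.5 cluster Gata2 had a lowest value of 2.31, a median of 11.24 and a highest value of 13.50. The cells below background were 1, 2, 18 and 27, and of these 18 and 27 read 8.92 and 6.63 on the other probe set, which put 26 of 28 cells above background on at least 1. In the E12.5 cluster the lowest, median and highest values were 3.83, 12.82 and 14.78. The E12.5 cells below background were 6 and 10, and both had 8 of 8 macrophage markers, with 9 of 10 hematopoietic ones. Without the 3 cells that held macrophage genes Gata2 was in 13 of 13. In HSC the values ran from 3.03 through a median of 10.17 to 12.44, with cells 9, 16, 22 and 23 below background, and 24 of 26 were above it on at least 1 probe set. The 4 populations overlapped across nearly their whole ranges.

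By mean, E12.5 cluster cells stood highest for Gata2 at 11.57 ± 3.43, followed by HEC at 10.45 ± 3.39, E10.5 cluster cells at 9.83 ± 3.28, HSC at 9.18 ± 3.02 and EC at 5.77 ± 4.48. None of the neighbours in this order differed by more than the larger of their SDs. E12.5 minus E10.5 cluster was 1.75, or 2.95 without the cells with macrophage genes and 0.80 on the other probe set. HSC minus E12.5 cluster was -2.40, or -3.52 without the 6 cells against their label and -1.003 after quantile normalization. HSC minus HEC was -1.27, which did not hold: it was -0.36 on the other probe set, 0.35 after quantile normalization, -0.84 without HEC cell 1 and -2.51 without HEC cell 6. E10.5 cluster minus HEC was -0.62, with -1.85 without HEC cell 6 and 0.89 on the other probe set. HSC minus E10.5 cluster was -0.65, against 1.12 after quantile normalization. The Gata2 probe sets correlated at r = 0.71 (rho = 0.70) over the 84 cells, as a description of points that share array depth.

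Gata3, the T cell and sympathetic neuron factor, was found in 7 of the 84 cells. It was above background in 2 of 7 HEC (28.6%, 3.67 to 71.0%), 1 of 16 cells of the E12.5 cluster (6.25%, 0.158 to 30.2%) and 4 of 26 HSC (15.4%, 4.36 to 34.9%). It was in 0 of 7 EC, which allows up to 42.9%, and in 0 of 28 cells of the E10.5 cluster, which allows up to 10.7%. The HEC values were 7.11 in cell 2 and 7.73 in cell 7, and those of HSC were 5.86 (cell 6), 8.002 (cell 13), 8.30 (cell 17) and 8.43 (cell 1). By far the highest was E12.5 cluster cell 13 at 12.82, where Gata1 and Zfpm1 were below background, Gata2 read 9.02, and 8 of 10 hematopoietic markers were found beside 1 of 10 endothelial ones and none of the other marker lists.

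All 7 cells with Gata3 also had Gata2. HEC cells 2 and 7 had 9 and 10 of 10 endothelial markers, and the 4 HSC had 6 to 10 of 10 hematopoietic ones. Genes of the other places where GATA3 acts gave little: of 10 sympathoadrenal and nephric genes on the array, such as Th, Dbh, Ret and Pax8, 0 were measured. Of 18 T cell and innate lymphoid genes 7 were measured. From E10.5 to E12.5 cluster cells 3 were higher, led by Id2 (2.47) and Tox (2.45), and 0 lower. Of all genes 5.47% were higher there and 39.9% lower. The median difference of the 7 was 0.96, against -0.66 for all genes. From E12.5 cluster cells to HSC 0 were higher and 5 lower, beside 7.91% and 36.9% of all genes, although Gata3 was in 4 HSC. The median there was -1.60, against -0.53 for all genes. From EC to HEC 2 were higher and 0 lower (median -0.03, against 0.82), beside 45.9% and 7.36% of all genes.

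Mean Gata3 was 3.79 ± 2.49 in HEC, 3.16 ± 1.995 in HSC, 2.98 ± 2.63 in the E12.5 cluster, 2.37 ± 0.03 in EC and 2.28 ± 0.03 in the E10.5 cluster. In this order only the gap of 0.08 between EC and E10.5 cluster cells exceeded the larger SD, and there every value was at the floor. HEC minus EC was 1.42 and E10.5 cluster minus HEC -1.50, and both rest on HEC cells 2 and 7. Without cell 2 they were 0.86 and -0.95, without cell 7 they were 0.76 and -0.84, and with medians over cells they were -0.03 and -0.05. Shifting the cells to an equal median gave 0.44 and -0.99.

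Zfpm1 (FOG1) was read on probe set 1451046_at, whose lower values lay close to the background limit. In all 5 populations values crowded between 4 and 6, which held 4 of 7 EC, 5 of 7 HEC, 17 of 28 cells of the E10.5 cluster, 14 of 16 cells of the E12.5 cluster and 20 of 26 HSC. A limit of 5 therefore divided one crowd of cells, and counts are given at 5 and, as a limit chosen after the values were seen, at 6. Over 5 were 1 of 7 EC, 3 of 7 HEC, 19 of 28 cells of the E10.5 cluster, 6 of 16 cells of the E12.5 cluster and 12 of 26 HSC. Over 6 were 0 of 7 EC (which allows up to 42.9%), 2 of 7 HEC (28.6%, 3.67 to 71.0%), 11 of 28 cells of the E10.5 cluster (39.3%, 21.5 to 59.4%), 2 of 16 cells of the E12.5 cluster (12.5%, 1.55 to 38.3%) and 4 of 26 HSC (15.4%, 4.36 to 34.9%). At both limits E10.5 cluster cells had the largest share, and their intervals overlapped with those of all other populations, EC included. After quantile normalization the order of shares over 5 turned, with 25% of E10.5 cluster cells against 62.5% of E12.5 cluster cells. The share was 85.7% in EC and in HEC and 100% in HSC. On that scale 5 does not mark background, since EC cells that were below background before passed it.

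The E10.5 cluster cells over 6 read 6.26 (cell 3), 6.47 (cell 9), 6.50 (cell 6), 6.86 (cell 5), 7.03 (cell 10), 7.34 (cell 23), 7.68 (cell 13), 8.69 (cell 15), 8.80 (cell 8), 8.92 (cell 14) and 10.28 (cell 19) for Zfpm1. In HEC the cells over 6 were 7 at 7.19 and 6 at 9.77, and in the E12.5 cluster they were 12 at 6.26 and 4 at 10.72. Among HSC they were 2 (6.83), 10 (7.19), 23 (7.24) and 3 (9.19). The highest EC value was 5.02.

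Mean Zfpm1 was 5.99 ± 1.62 in the E10.5 cluster, 5.80 ± 1.98 in HEC, 5.33 ± 1.52 in the E12.5 cluster, 5.32 ± 1.19 in HSC and 4.04 ± 0.90 in EC. The gap of 1.28 between HSC and EC exceeded the larger SD, and the other neighbours in this order did not differ by more than theirs. HEC minus EC was 1.76, the only Zfpm1 difference past 1. It was 1.097 without HEC cell 6, 0.78 after the cells were shifted to an equal median, -0.55 after quantile normalization and 0.03 with medians over cells. E12.5 minus E10.5 cluster was -0.66, or -1.02 without E12.5 cell 4 and 1.60 after quantile normalization.

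Within the E10.5 cluster Gata1 and Zfpm1 were found in overlapping sets of cells. With Zfpm1 at the limit of 6 and the others at 5, 8 of the 28 cells had all of Gata1, Gata2 and Zfpm1, 2 had Gata1 and Gata2, 3 had Gata2 and Zfpm1, 11 had Gata2 alone and 4 had none. All 10 cells with Gata1 and all 11 with Zfpm1 had Gata2, which was in 24 of the 28. Gata1 was in 8 of the 11 Zfpm1 cells, and Zfpm1 in 8 of the 10 Gata1 cells. With all members at the limit of 5, 9 cells had Gata1, Gata2 and Zfpm1, 1 had Gata1 and Gata2, 9 had Gata2 and Zfpm1, 5 had Gata2 alone, 1 (cell 1) had Zfpm1 alone and 3 had none. At that limit Gata1 was in 9 of the 19 Zfpm1 cells.

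**Figure D3:**
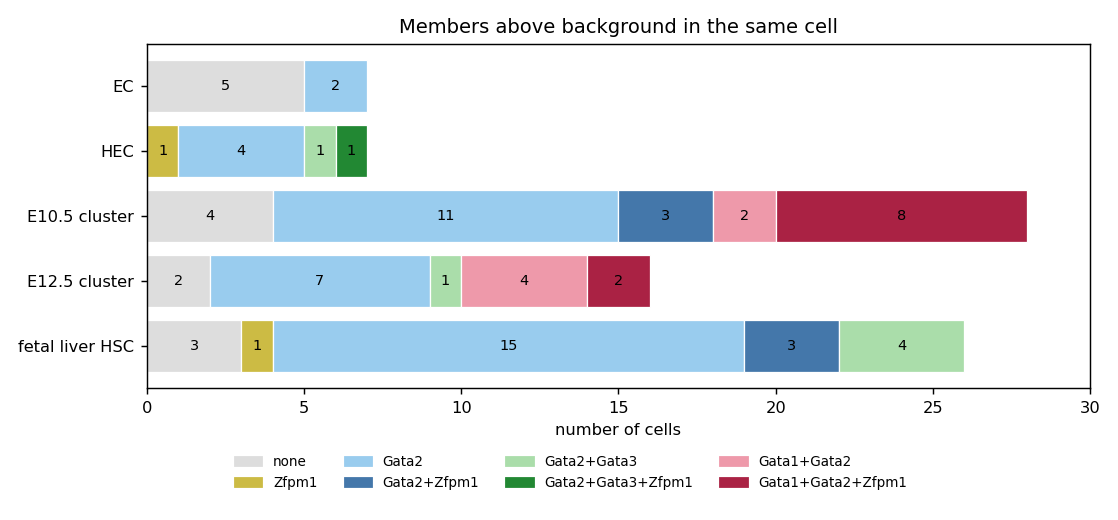
Number of cells (horizontal axis) in each population (vertical axis), coloured by which members were above background in the same cell, with Zfpm1 counted over 6 and the others over 5. The numbers in the bars are cells, and Gata1 appears with Gata2 in 10 E10.5 and 6 E12.5 cluster cells and never without it.

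Over the 28 E10.5 cluster cells Gata1 and Zfpm1 values had r = 0.70 and rho = 0.62. Without the pair of cells farthest from the median of Gata1 these were 0.70 and 0.58. Gata1 and Gata2 had r = 0.32 and rho = 0.22, and Gata2 and Zfpm1 r = 0.53 and rho = 0.53. Gata1 also followed the number of probe sets above background on the array (r = 0.53, rho = 0.19). Cells with Gata1, Gata2 and Zfpm1 had a median of 10673 such probe sets (9355 to 11487), and cells with Gata2 alone had 9757 (8352 to 10956). The part of depth in the shared detection was not tested, and the correlations are a description of 28 cells that share a gate and a stage.

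**Figure D4:**
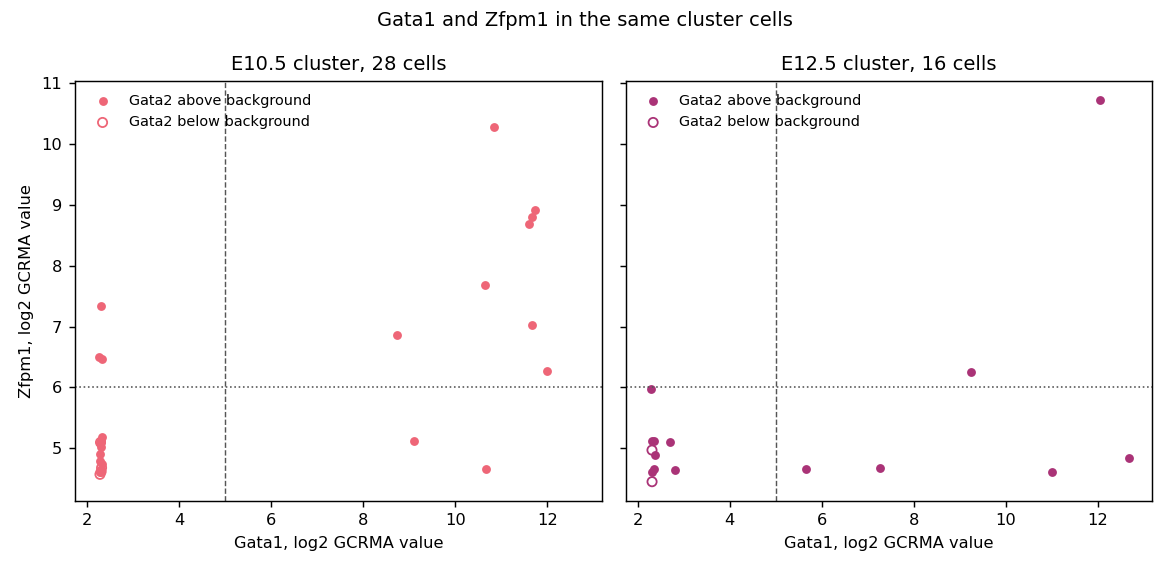
Zfpm1 against Gata1, both as log2 expression values, in the 28 E10.5 cluster cells (left) and the 16 E12.5 cluster cells (right). Each point is a cell, filled where Gata2 was above background, with the Gata1 limit of 5 dashed and the Zfpm1 limit of 6 dotted. At E10.5 8 cells lie past both limits and 3 past that of Zfpm1 alone, and at E12.5 2 cells lie past both and 4 past that of Gata1 alone.

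In the E12.5 cluster Gata1 again came with Gata2 but mostly without Zfpm1. Of the 6 cells with Gata1, 2 had Zfpm1 over 6 and 4 did not, and at the limit of 5 the counts were the same. A further 7 cells had Gata2 alone, 1 had Gata2 and Gata3, and the 2 cells with none of the members were 6 and 10, which held macrophage genes. Cell 3 also had 8 of 8 macrophage markers and read 11.27 and 9.60 on the Gata2 probe sets. Gata1 and Zfpm1 had r = 0.46 and rho = 0.02 over the 16 cells, and 0.14 and -0.15 without the pair farthest from the median of Gata1. Whether the shares with Zfpm1 differ between stages, 8 of 10 against 2 of 6, was not tested.

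EC, HEC and HSC had no Gata1, so Zfpm1 there appeared without it. In HEC Zfpm1 over 6 came with Gata2 and Gata3 in cell 7 and alone in cell 6, whose Gata2 was read on the other probe set. In HSC it came with Gata2 in 3 cells and alone in cell 23, which read 7.68 on the other Gata2 probe set. The largest class of HSC was the 15 of 26 cells with Gata2 alone, 4 had Gata2 and Gata3, and 3 had none of the members. The cells with Gata2 alone include 5 and 7, which held sinusoidal genes, and of those with none cell 16 read 9.43 on the other Gata2 probe set. No HSC had Gata3 together with Zfpm1 over 6, each of which was in 4 of 26. HSC cell 1 had both when the Zfpm1 limit was 5.

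In each of the 6 comparisons the members' counts stand beside the share of all genes, and with 4 members nothing is read from the size of a count. From EC to HEC 3 of the 4 members (Gata2, Gata3 and Zfpm1) were higher and 0 lower, where 45.9% of the 10694 measured genes were higher and 7.36% lower. From HEC to E10.5 cluster 1 member was higher (Gata1) and 1 lower (Gata3), beside 43.1% and 15.7% of genes. Between the cluster stages 1 was higher (Gata2) and 0 lower, beside 5.47% and 39.9%. From E12.5 cluster to HSC 0 were higher and 2 lower (Gata1 and Gata2), beside 7.91% and 36.9%. In HSC against E10.5 cluster cells 0 were higher and 1 lower (Gata1), beside 5.01% and 55.5%. HSC against HEC gave 0 higher and 1 lower (Gata2), beside 14.3% and 39.3%. Over all measured genes the median difference was not at 0 but at 0.82, 0.71, -0.66, -0.53, -1.29 and -0.51 in this order.

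That split changed with the scaling, and its source was not tested. Quantile normalization gives every cell the same distribution of values, so a more even split follows from the method. After quantile normalization the medians over all genes were 0.00, 0.19, -0.03, 0.01, -0.04 and 0.10, and from EC to HEC 2723 genes were higher and 2312 lower, against 4912 and 787 before. The quantile counts of higher and lower genes were 2985 and 2433 from HEC to the E10.5 cluster, against 4606 and 1682 before. From the E10.5 to the E12.5 cluster they were 1617 and 2029, against 585 and 4268. From the E12.5 cluster to HSC they were 1850 and 2059, against 846 and 3947. With cells shifted to an equal median 2845 genes were higher and 3278 lower in HEC than in EC. Relative to the median of all genes, Gata2 in HEC exceeded EC under all 3 scalings, with differences of 4.67, 3.70 and 2.33 against medians of 0.82, -0.15 and 0.00. The E12.5 minus E10.5 difference of Gata2 was 1.75, 1.71 and 2.12 against medians of -0.66, -0.70 and -0.03.

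Partners of GATA factors were found in part of the cells of each population. Of 18 genes of the GATA, TAL1 and LMO2 complex and its neighbours, cells held a median of 6 in EC and 9 in HEC. The medians were 13 in the E10.5 cluster, 10 in the E12.5 cluster and 10 in HSC. Of the 18, 6 were in no EC and 6 in no HEC. All 18 were measured somewhere, with 11 higher and 1 lower in HEC than in EC, beside 45.9% and 7.36% of all genes. The median was 1.72, against 0.82 for all genes. The largest differences there were those of Lyl1 (4.82), a partner of TAL1, and Lmo2 (4.75), the bridging protein of the complex, while Ssbp2 (-1.80) was lower. From HEC to E10.5 cluster 9 were higher and 4 lower (median 0.85, against 0.71), beside 43.1% and 15.7% of all genes. Ssbp2 stood at 7.37 and Spi1, which encodes the GATA antagonist PU.1, at 5.68, with Ldb2 at -7.11 and Erg at -2.77. Between the cluster stages 1 was higher (Lmo4, 2.63) and 12 lower, led by Lmo2 (-3.72) and Tal1 (-2.65). Their median was -1.34, against -0.66 for all genes, of which 5.47% were higher and 39.9% lower.

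Corepressors that FOG1 recruits were found in every population. Of 15 NuRD and CtBP genes, all measured, cells held a median of 10 in EC, 12 in HEC, 13 in the E10.5 cluster, 12.5 in the E12.5 cluster and 11 in HSC. From EC to HEC 11 were higher and 0 lower (median 1.74, against 0.82 for all genes), led by Ctbp1 (5.06) and Mta1 (2.90). Of all genes 45.9% were higher there and 7.36% lower. Against E10.5 cluster cells 13 of 15 were lower in HSC and 1, the helicase gene Chd3 (5.20), was higher, with Ctbp2 (-4.36) and Mta3 (-4.22) lowest. The median was -2.44, against -1.29 for all genes, of which 55.5% were lower and 5.01% higher. Chd3 thus went opposite to most of its complex, with 22 of 26 HSC and 3 of 28 cells of the E10.5 cluster above background.

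Other members of the GATA and FOG family were sparse. Of Gata4, Gata5, Gata6, Zfpm2 and Trps1, only Gata6 and Trps1 were measured. Gata6, a factor of vessel smooth muscle and gut, was found in 4 of 7 HEC, 0 of 7 EC, 0 of 28 cells of the E10.5 cluster, 1 of 16 cells of the E12.5 cluster and 1 of 26 HSC. Its mean differed by 3.72 from EC to HEC and by -4.03 from HEC to E10.5 cluster. Trps1, an atypical GATA repressor, was in 6 of 28 E10.5 and 4 of 16 cells of the E12.5 cluster, in 1 of 26 HSC and in no EC or HEC.

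Lineage genes known as GATA1 targets were partly present. Of 24 erythroid genes on the array 13 were measured. In the E10.5 cluster 9 were higher and 0 lower than in HEC, beside 43.1% and 15.7% of all genes. Nfe2 (8.24) and the transferrin receptor gene Tfrc (7.18) led, and the median was 2.14, against 0.71 for all genes. Against E10.5 cluster cells 0 were higher and 10 lower in HSC (median -1.68, against -1.29), beside 5.01% and 55.5% of all genes. Tfrc stood at -7.81 and Fech, which encodes the last enzyme of heme synthesis, at -3.70. Genes of finished red cells were in few cells or none: Alas2 was in 2 of 28 cells of the E10.5 cluster. Hba-a1, Hba-a2, Slc4a1 and Epb42 were in no cell. The embryonic globin genes Hbb-bh1 and Hbb-y were in 3 and 4 of the 28 E10.5 cluster cells. Of 16 measured megakaryocyte genes 10 were higher and 1 lower in the E10.5 cluster than in HEC, with Itgb3 at 5.35 and the endothelial and platelet gene Vwf at -7.26. The median of that list was 1.55 with means, against 0.71 for all genes, of which 43.1% were higher and 15.7% lower. With medians over cells the list stood at -0.03, against -0.01 for all genes. Itga2b encodes CD41, which the EC and HEC gates exclude.

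Mast cell, basophil and eosinophil genes were mostly unread, with 3 of 16 measured. Cpa3, the mast cell carboxypeptidase gene, was in 11 of 28 E10.5 and 11 of 16 cells of the E12.5 cluster and in no EC, HEC or HSC. Its mean was higher by 2.71 in the E10.5 cluster than in HEC and by 4.36 at E12.5 than at E10.5. Hdc, which encodes the histamine-making enzyme, was in 8 and 5 cluster cells. The protease genes Mcpt1, Mcpt2, Mcpt4, Tpsab1 and Tpsb2 and the eosinophil genes Epx and Prg2 were in no cell.

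In the E10.5 cluster the lineage genes divided between cells with and without Gata1 in several ways. Of the 31 measured genes of the erythroid, megakaryocyte and mast cell lists, 21 were found in a larger share of the 10 Gata1 cells than of the 18 others, 9 in a smaller and 1 in an equal share. Of the 31 genes 6 were found in Gata1 cells alone and 4 in none of them. No such tally over all measured genes stands beside these counts or those at E12.5, so nothing is read from their size. All 7 cells with Klf1, the red cell factor, and all 5 with Rhag, a red cell membrane gene, were among the 10 Gata1 cells. So were all 3 with Hbb-bh1, an embryonic globin gene, and all 4 with Gp5, a platelet glycoprotein gene. The same held for 7 of 8 cells with Treml1 and 9 of 11 with Cpa3. Hbb-y, another embryonic globin gene, was in 4 cells, 2 with Gata1 and 2 without. In the other direction, Mmrn1, a platelet and endothelial gene, was in 5 Gata1 cells and 14 others, Pf4, a platelet chemokine gene, in 2 and 5, Uros, a heme enzyme gene, in 3 and 8, and Ppbp, Vwf and Mitf in 0 and 3 each. Spi1 was in 7 of the 10 and in all 18 other cells, and genes found in nearly every cell, such as Tfrc and Nfe2, were in all 10. At E12.5 Klf1 was in 2 of the 6 Gata1 cells and 2 of the 10 others, and Cpa3 in all 6 and in 5, and of 27 genes found there 18 were in a larger share of Gata1 cells and 9 in a smaller. At E10.5 the Gata1 cells had 9355 to 11487 probe sets above background and the others 8244 to 11028, and the part of depth was not tested. These genes were named after their values were seen. Gata1 cells at E10.5 had 9 or 10 of 10 hematopoietic markers and 0 to 3 of 5 erythroid ones.

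**Figure D5:**
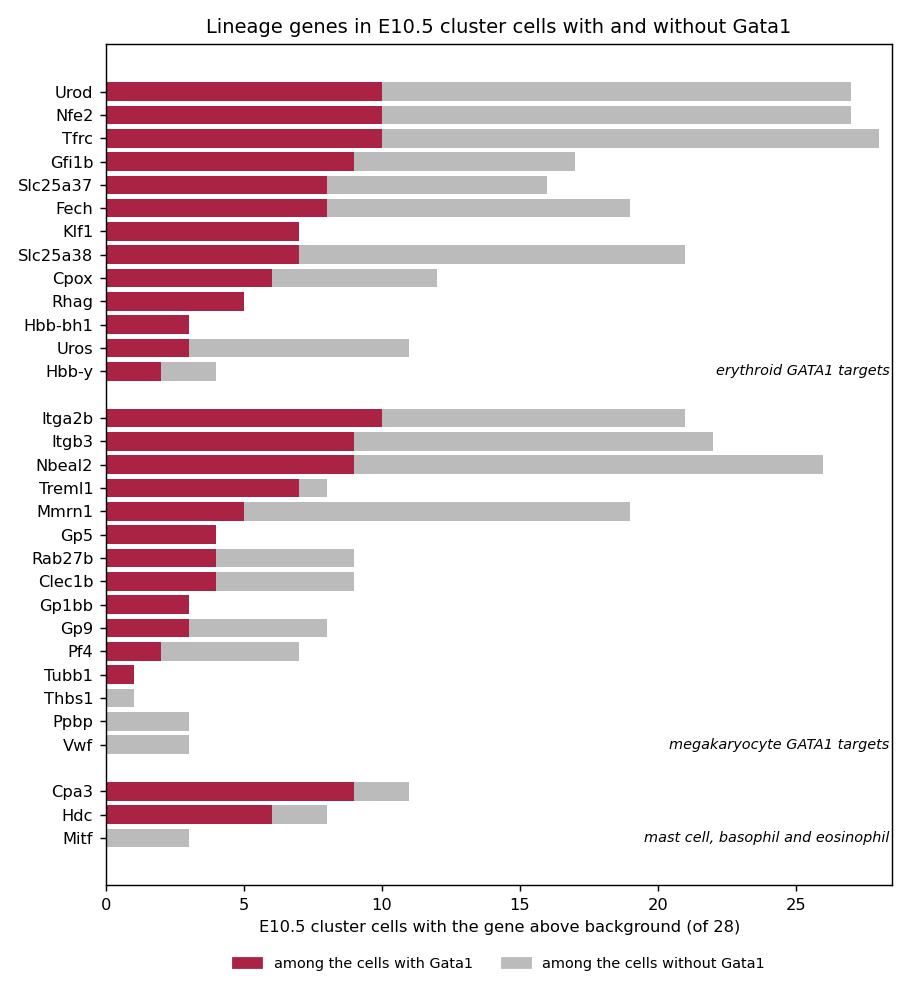
Number of E10.5 cluster cells (horizontal axis, of 28) in which each measured gene of the erythroid, megakaryocyte and mast cell lists (vertical axis) was above background, divided into the 10 cells with Gata1 (dark) and the 18 without (grey). Klf1, Rhag, Hbb-bh1, Gp5, Gp1bb and Tubb1 have only dark bars, whereas Tfrc, Nfe2, Urod and Nbeal2 are in nearly all cells of both kinds.

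Stem cell genes linked to GATA2 were divided between clusters and HSC. Of 17 measured, 9 were higher and 5 lower in HSC than in the E12.5 cluster, beside 7.91% and 36.9% of all genes. The median was 1.03, against -0.53 for all genes. Mecom (7.41), which encodes EVI1, and the repressor gene Gfi1 (5.29) were highest and Zbtb16 (-4.66) and Cebpa (-3.07) lowest. Mecom was in 23 of 26 HSC, 6 of 7 HEC, 1 of 7 EC, 3 of 28 E10.5 and 1 of 16 cells of the E12.5 cluster, whereas Gata2 was in most cells of all these populations but EC. From EC to HEC 8 of the 17 were higher and 1 lower (median 0.37, against 0.82), beside 45.9% and 7.36% of all genes. From HEC to E10.5 cluster 9 were higher and 4 lower (median 1.07, against 0.71), beside 43.1% and 15.7%. Of 11 measured endothelial genes linked to GATA2, 8 were higher and 1 lower in HEC than in EC (median 2.17, against 0.82 for all genes). Of all genes 45.9% were higher and 7.36% lower there, and EC include cell 3, with 1 of 10 endothelial markers. From the E12.5 cluster to HSC 5 of the 11 were higher and 0 lower (median 0.72, against -0.53), beside 7.91% and 36.9% of all genes. In the E10.5 cluster 0 were higher and 10 lower than in HEC (median -6.12, against 0.71), beside 43.1% and 15.7% of all genes. The lowest were Cdh5 (-9.60), the gene of VE-cadherin, and Emcn (-9.04). Gata2 differed by -0.62 there.

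The genes whose pattern was most like a member's were ranked by Pearson's r among the 8839 genes above background in at least 10 cells. For Gata1 over all 84 cells they were Slc45a3 (r = 0.70, rho = 0.54), Slc16a3 (0.68, 0.41), Asb1 (0.68, 0.66), Alox5 (0.68, 0.38) and Cpa3 (0.67, 0.80). Within the 28 E10.5 cluster cells they were Muc13 (0.81, 0.69), Taok3 (0.80, 0.61), Cpa3 (0.79, 0.76), Gadd45a (0.78, 0.74) and Klf1 (0.78, 0.60), so that Cpa3 was in both sets of 5. For Gata2 over all cells the values were lower, with Rnf44 first (r = 0.49, rho = 0.43), followed by Sipa1l1, Cpa3, Grcc10 and Prr13 (0.46). Within the E10.5 cluster Gata2 had Arhgap6 (0.71, 0.68) first. For Zfpm1 over all cells the first was Abcf3 (r = 0.56), whose rho was 0.18. Within the E10.5 cluster Zfpm1 had Cpa3 (0.75, 0.71), Hpn (0.74, 0.52) and Ddah2 (0.73, 0.65) at the top. Several of these values were lower after quantile normalization. There r was 0.31 for Cpa3 and 0.35 for Ddah2 with Zfpm1 in the E10.5 cluster. Over all cells it was 0.14 for Abcf3 with Zfpm1 and 0.30 for Slc16a3 with Gata1. Among the 5 for Zfpm1 over all cells, Smim5 and Homer2 turned from 0.55 and 0.54 to -0.18 and -0.11. Gm11517 and Gm4802, from 0.54 and 0.53, rose to 0.82 each. Of the 5 genes over all cells, 2 for Gata1, 1 for Gata2 and 0 for Zfpm1 were again among the first 5 on that scale. Gata3, found in 7 cells, had too few for this ranking. All these values describe cells that share population and array depth.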

How the data were processed

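The deposited values are log2 expression values that the authors made with GCRMA and affy, per the submitters' processing notes. Tool versions are not given in the sources used here. This method subtracts background estimated from the probes' bases and gives 1 value per probe set. No array was normalized again for the main values. Of 45101 probe sets 34958 had 1 gene symbol in the platform annotation and were used, 932 had several and 9211 none. A gene was represented by its probe set of highest mean. Samples were grouped by the labelled cell population.

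Each population counted as 1 sample, so means were compared with no test. Shares carry exact Clopper-Pearson 95% intervals. Named genes were the 4 members, the 5 genes most like a member, and from each list at most 2 measured genes with the largest positive and 2 with the largest negative difference in a comparison. Others are said to be chosen after their values were seen, or are examples of genes at 0 and counts of cells. The members and lists were chosen with earlier results of these data known.

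Alternatives were another scaling, limit, probe set or summary, and leaving out cells. Python 3.11.15, numpy 2.4.6, pandas 2.3.3 and scipy 1.17.1 were used. The calculation was tested on simulated data. Promoters came from the RefSeq table of assembly GRCm38.p6. The number of arrays limits precision.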

Additional observations from a re-analysis of the deposited data

Results flagged for a closer look

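In populations of 7 cells, values that stood apart from the other 6 were looked for in 12 groups (6 probe sets in EC and in HEC). Of these, 3 held a value separated from its nearest neighbour by an unusually large part of the group's range. The rule is set so that chance flags about 1 in 20 groups of normally distributed values. Groups near the floor, or split into high and low values, are not of that kind, so nothing is read from the count. Gata2 on probe set 1450333_a_at read 3.02 in HEC cell 6, where the other 6 HEC read 10.03 to 13.05. Gata2 on probe set 1428816_a_at read 3.43 in HEC cell 3, where the others read 7.402 to 10.03. The low cell was a different one on each probe set. Gata1 read 2.56 in EC cell 5, where the others read 2.32 to 2.39, all below background.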

How the results depend on the processing

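No paired analysis was possible because no test was made and the replicate numbers only name cells. Among differences of members, those that changed were as follows, and the cause was not tested. With medians over cells Gata3 in HEC minus EC was -0.0305, Gata1 in E10.5 cluster minus HEC -0.0301 and Gata1 in HSC minus E10.5 cluster 0.0366, because most cells lacked the gene. After quantile normalization Gata1 in HEC minus EC was -0.10, Zfpm1 in HEC minus EC -0.55, in E12.5 minus E10.5 cluster 1.60 and in HSC minus E10.5 cluster 2.77, and Gata2 in HSC minus HEC 0.35. With cells shifted to an equal median Gata1 was -0.99 in HEC minus EC and 0.53 in HSC minus HEC, both between populations without the gene. On its other probe set Zfpm1 in HEC minus EC was -0.0379. The remaining 145 of 156 recomputed differences lay within 1 SD over cells of their first value, but that SD is wide, and 18 of them changed sign, 4 to a value past 1. These 4 were after quantile normalization: Gata2 in HSC minus E10.5 cluster (1.12) and Zfpm1 in E10.5 cluster minus HEC (-1.59), HSC minus E12.5 cluster (1.17) and HSC minus HEC (1.18). Some of the 145 were the same by construction, such as the mean of probe sets for Gata1 and Gata3, with 1 probe set each. All 888 recomputed differences that left out 1 cell lay within 1 SD. That was fixed in advance, because leaving out 1 cell cannot move a mean by its SD over cells. Of the 888, 37 changed sign, each of a difference under 1 in size. Without HEC cells 1, 2, 6 or 7 or E12.5 cluster cell 4 some crossed the limit of 1, as given in the results.

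Shares of cells moved most for Zfpm1. At a limit of 4 they were 100% in HEC, 100% in the E10.5 cluster, 100% in the E12.5 cluster and 92.3% in HSC. At 6 they were 0% in EC, 39.3% in the E10.5 cluster, 12.5% in the E12.5 cluster and 15.4% in HSC, and after quantile normalization 85.7% in EC, 85.7% in HEC, 25% in the E10.5 cluster and 100% in HSC. After quantile normalization Gata2 passed the limit in 100% of EC and 96.2% of HSC. On that scale the limit does not mark background, for Zfpm1 or Gata2. Gata2 was in 100% of HEC on any probe set and in 100% of the E12.5 cluster without the cells against their label. The other 104 recomputed shares stayed within the exact interval.

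Counts of all measured genes past the limit moved by over 1.5 times as follows, in the order HEC minus EC, E10.5 cluster minus HEC, E12.5 minus E10.5 cluster, HSC minus E12.5 cluster, HSC minus E10.5 cluster and HSC minus HEC. At a limit of 2 the higher genes were 2805, 2706, 147, 241, 157 and 563 and the lower 186, 929, 1814, 1630, 3939 and 2416. After quantile normalization they were 2723 higher and 2312 lower, 2985 higher, 1617 and 2029, 1850 and 2059, 2181 and 2761, and 2694 and 2595. With cells shifted to an equal median they were 2845 higher and 3278 lower in the first and 2652 higher in the last. With the mean of probe sets 428 were lower in the first, and 351, 492, 313 and 1000 higher in the last 4. With medians over cells 517 were lower in the first, and 270 and 968 higher in the last 2.

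Medians of lists changed sign in 5 cases. After quantile normalization the GATA partners stood at 0.65 and the stem cell genes at 0.63 in HSC minus E10.5 cluster. With medians over cells the megakaryocyte genes were at -0.0261 and the mast cell genes at -0.0405 in E10.5 cluster minus HEC, and the mast cell genes at 0.0484 in HSC minus E10.5 cluster. Signal close to background limits Zfpm1, and 7 cells each limit EC and HEC.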
